A study of Mus musculus with 15 samples.

Results

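The interferon response and antigen processing genes described here are a list of 32 mouse genes, measured in primary hepatocytes in which the stress kinase and endoribonuclease IRE1a was expressed from adenoviruses or knocked down. Of the 32, 30 had a probe set that the platform annotation ties to that gene symbol alone, and 29 passed the signal filter, among 16294 genes tested. Isg15 was read only by a probe set shared with Gm9706, Ifi44 had no single-symbol probe set, and Mx1 stayed below the filter. The list was not built from measured values, but it was proposed with earlier results of these data known.

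The arrays came from hepatocytes of C57BL/6 mice in serum-free HepatoZYME-SFM medium, in 5 groups of 3, and the series text gives 3 independently conducted experiments. Wild-type IRE1a, its S724A variant (a serine replaced by alanine, as the name gives it) or the fluorescent protein EGFP was expressed for 48 h from an adenovirus, with no glucagon. A hairpin against IRE1a or a control hairpin was carried by an adenovirus for 72 h, and both hairpin groups then received glucagon, the fasting hormone that raises hepatic glucose output, for 4 h. Every group carried a virus, so no array shows hepatocytes without one. The sources used here give neither the age and sex of the mice nor the dose of each virus.

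As background, cells that sense viral nucleic acid through RIG-I-like receptors make interferons, which act through JAK kinases on STAT and IRF factors. These factors bind interferon-stimulated response elements in the promoters of antiviral effector genes. Interferon gamma and IRF1 also raise the immunoproteasome, whose peptides the TAP transporter carries into the endoplasmic reticulum for loading onto MHC class I. IRE1a spans that same membrane: when the folding load of the endoplasmic reticulum rises it phosphorylates itself and splices the Xbp1 messenger RNA. Adenoviruses are themselves inducers of interferon-stimulated genes.

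The median log2 signal of an array was 5.69 to 5.83, and 79.0% to 81.4% of probe sets read 4 or more. Ern1, the gene for IRE1a, had log2 signals of 7.60, 7.44 and 7.51 with the IRE1a hairpin, against 8.89, 8.96 and 9.10 with the control hairpin, and it fell by 1.47 on the log2 scale (limma, adjusted p = 0.00293). Its other probe sets, with lower signals, changed by -0.58, -0.43, -0.65 and 0.35, and none of them passed. In the expression cultures Ern1 read 9.30, 8.89 and 9.07 with wild-type IRE1a and 9.68, 9.04 and 9.54 with S724A IRE1a, against 9.41, 8.68 and 8.81 with EGFP. Without pairs these groups overlap and neither change passed. With the arrays of the same number paired, S724A IRE1a was past the threshold against EGFP on this probe set (change 0.46, adjusted p = 0.022). The other Ern1 probe sets changed by -0.29, -0.04, -0.04 and -0.30 with wild-type IRE1a. With S724A IRE1a they changed by -0.08, 0.23, 0.07 and -0.37, and none passed unpaired. The probe sets thus do not clearly show the added IRE1a. The sources used here do not say where they lie relative to the viral insert. Of 10 measured hepatocyte markers, 8 read 10 or more on all 15 arrays, with Alb, the albumin gene, between 14.1 and 14.6. Of 41 measured immune cell markers, 4 (Timd4, Cd163, Cd3g and Cd79b) were below 4 on all arrays. By contrast 1, Cd68, read 10 or more on all arrays (10.96 to 12.13). Ly6d ran from 6.71 to 9.48, Flt3 from 7.04 to 7.65 and Csf1r from 6.58 to 7.12. The summed immune signal, as the mean over its markers, was 5.14 to 5.26 with wild-type IRE1a, 5.09 to 5.12 with S724A IRE1a, 5.15 to 5.31 with EGFP, 5.03 to 5.33 with the IRE1a hairpin and 5.03 to 5.14 with the control hairpin. In bulk RNA, fewer cells of a type and less RNA per cell cannot be told apart.

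The 29 tested genes varied more between arrays of a group than genes did in general. Their median within-group standard deviation was 0.28 on the log2 scale, against 0.17 over all genes tested. Their group means spanned a median of 0.63, against 0.37 over all genes. Mx1, which encodes a dynamin-like antiviral GTPase, stayed between 3.36 and 3.74 on all 15 arrays. RefSeq lists both Mx1 and Mx2 as transcribed pseudogenes in the C57BL/6J assembly, and Mx2 was measured at 6.15 to 7.29.

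**Figure D1:**
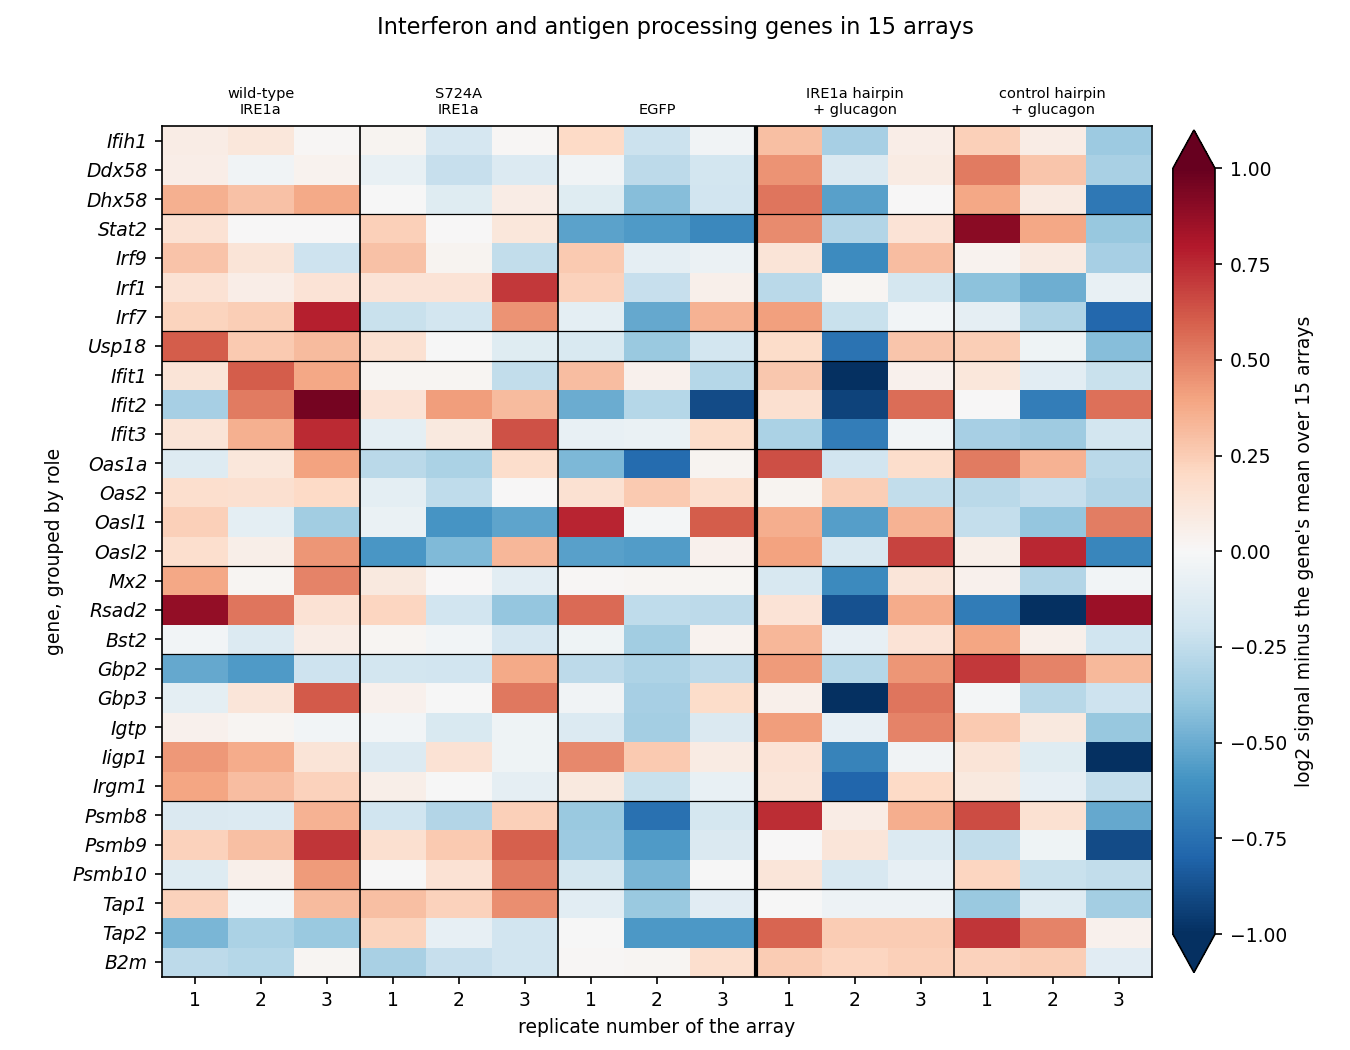
Heat map of the 29 tested genes (vertical axis, grouped by role) on the 15 arrays (horizontal axis, by group and replicate number). Colour is the log2 signal minus the gene's mean over 15 arrays, capped at 1 on either side; the thick line divides the 48 h cultures from the 72 h glucagon cultures, and columns of mostly low values stand out at IRE1a hairpin replicate 2 and control hairpin replicate 3.

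The promoters of these genes are shown because the element that interferon-activated factors bind can be read in them. RefSeq promoter windows of 250 bases before to 50 bases after the start site (build GRCm38.p6) were at hand for 25 of the 32 genes. Dhx58, Usp18, Oas2, Mx1, Mx2, Iigp1 and Tap2 are named only. The interferon-stimulated response element was searched as GAAANNGAAA and the gamma-activated site as TTCNNNGAA, each on both strands, with overlapping matches counted. A gene was counted if any of its windows held the pattern. The response element was present for 14 of 25 genes (56%), against 3.99% of 27025 genes. The gamma-activated site was present in 6 of 25 (24%), against 9.55% of all genes. Stretches with the matched response element in capitals follow for Isg15, which encodes the ubiquitin-like modifier of the response, for Stat2, the partner of IRF9, and for Ifit3, Oas1a and Gbp2, whose changes are given below.
Isg15, chr4:156200860-156200911, minus strand: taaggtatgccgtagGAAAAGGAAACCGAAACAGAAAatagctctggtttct
Stat2, chr10:128270261-128270300, plus strand: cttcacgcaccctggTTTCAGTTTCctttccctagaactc
Ifit3, chr19:34583358-34583431, plus strand: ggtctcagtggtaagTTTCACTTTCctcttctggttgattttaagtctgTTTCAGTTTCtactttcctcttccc
Oas1a, chr5:120907515-120907560, minus strand: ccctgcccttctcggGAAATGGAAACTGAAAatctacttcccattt
Gbp2, chr3:142620589-142620628, plus strand: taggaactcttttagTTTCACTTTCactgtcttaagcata

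Psmb9 and Tap1, the genes called in the expression cultures, lie head to head on chromosome 17. Their annotated start sites are 226 bases apart on opposite strands, so 275 bases of their windows are the same DNA. The Tap1 window, given whole because it holds most of the Psmb9 window, contains neither search pattern on either strand, which says only that these letters are not in it.
Tap1, chr17:34187306-34187605, plus strand: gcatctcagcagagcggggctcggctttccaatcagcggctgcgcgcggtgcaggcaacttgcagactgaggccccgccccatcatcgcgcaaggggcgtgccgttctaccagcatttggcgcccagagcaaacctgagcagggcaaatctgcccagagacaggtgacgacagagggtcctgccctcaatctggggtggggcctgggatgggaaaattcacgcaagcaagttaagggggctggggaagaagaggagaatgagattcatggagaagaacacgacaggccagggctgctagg

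The first comparison asks what wild-type IRE1a does to these genes relative to EGFP. Psmb9, a catalytic subunit of the immunoproteasome, was the 1 gene of the 29 past the threshold (limma, Benjamini-Hochberg over 16294 genes, adjusted p under 0.05). No member was called lower. Over all genes 5.08% were called higher and 2.59% lower. Across the list 25 of 29 changes were positive, against 50.5% of all genes, and the median change was 0.33 on the log2 scale, against 0.00311 over all genes. The 3 arrays of each group did not overlap for 10 members, all higher with wild-type IRE1a, where 15.8% of all genes were separated upward and 10.9% downward.

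With arrays of the same number treated as pairs, since their residuals moved together, 9 members were called higher and 0 lower, against 10.6% of all genes higher and 4.99% lower. The 9 were Dhx58, Stat2, Irf7, Usp18, Ifit2, Ifit3, Oas1a, Psmb9 and Tap1. Leaving out a replicate number from the paired fit, an alternative chosen after seeing the data, reduced the count to 2 without number 1, 1 without number 2 and 3 without number 3. These fits hold fewer arrays per group, and the share of all genes they called is not given here. The lower counts are therefore not a result about the members. The paired fit leaves 6 residual degrees of freedom, against 10 without pairs.

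Psmb9 had log2 signals of 8.98, 9.05 and 9.46 with wild-type IRE1a, against 8.39, 8.19 and 8.61 with EGFP. The groups did not overlap, and each array was above the EGFP array of its own number. The change was 0.77 ± 0.20 (SE), or 1.71-fold, with an adjusted p of 0.0298. The change stayed between 0.62 and 0.88 with single arrays left out, but the adjusted p rose to as much as 0.138 and the call was lost when EGFP replicate 1 or 2, or wild-type replicate 2 or 3, was the omitted array.

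The other antigen processing members were less uniform. Tap1, a subunit of the peptide transporter, read 9.37, 9.11 and 9.45 with wild-type IRE1a, against 9.03, 8.76 and 9.02 with EGFP. All its wild-type arrays were above all EGFP arrays, by 0.37 ± 0.12 (adjusted p = 0.0701, and 0.0196 with pairs). Without wild-type replicate 2 the unpaired test also called it. The other tested Tap1 probe sets, with lower signals, changed by 0.06 ± 0.13 and 0.07 ± 0.20. Psmb8 and Psmb10, the other immunoproteasome catalytic subunits, had changes of 0.45 ± 0.26 and 0.33 ± 0.18 that did not pass (adjusted p = 0.355 and 0.318). Tap2, the partner of Tap1, differed by 0.00 ± 0.19, with a 95% confidence interval of -0.40 to 0.40. B2m, the light chain of MHC class I, had a change of -0.24 ± 0.11 that did not pass (adjusted p = 0.248), lower in all 3 pairs.

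Among signalling genes, Stat2 read 7.67, 7.53 and 7.53 with wild-type IRE1a, against 6.99, 6.95 and 6.88 with EGFP. Its groups were well apart, with a change of 0.63 ± 0.24, yet the pooled spread left it unpaired at an adjusted p of 0.142 (0.0277 with pairs); fitted on the 6 arrays of the comparison alone it passed, as did Dhx58 and Usp18. Irf7, the amplifying interferon regulatory factor, had a change of 0.50 ± 0.26 (adjusted p = 0.285, and 0.0237 with pairs). Irf9, which joins STAT2 at the response element, and Irf1 showed 0.03 ± 0.22 and 0.10 ± 0.17. The RNA sensors Ifih1 and Ddx58 had changes of 0.09 ± 0.17 and 0.18 ± 0.18, and neither passed. Dhx58, a regulator of those sensors, read 7.98, 7.92 and 8.0 with wild-type IRE1a, against 7.50, 7.20 and 7.44 with EGFP. Its 2 groups did not overlap (change 0.59 ± 0.26, adjusted p = 0.2, and 0.0497 with pairs). The other tested Dhx58 probe sets, with lower signals, changed by 0.42 ± 0.29 and -0.10 ± 0.10.

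Effector genes mostly had positive changes without passing the unpaired test. Usp18, the protease that removes ISG15, read 11.61, 11.27 and 11.32 with wild-type IRE1a, against 10.85, 10.63 and 10.82 with EGFP. It was higher on every wild-type array, by 0.63 ± 0.23 (adjusted p = 0.114, and 0.0451 with pairs). Ifit2, which binds viral RNA, had the largest change of the list, 0.94 ± 0.38, at 6.22, 7.07 and 7.51 with wild-type IRE1a, against 6.05, 6.27 and 5.66 with EGFP. Here wild-type replicate 1 lay inside the EGFP range, and the adjusted p was 0.166 (0.0155 with pairs). Ifit3, its family member, and Oas1a, which makes the oligoadenylate activator of RNase L, showed 0.40 ± 0.20 and 0.52 ± 0.26 (adjusted p = 0.283 and 0.261, and 0.0413 and 0.0489 with pairs). Oasl1, an OAS-like inhibitor of Irf7 translation in mice, went the other way at -0.52 ± 0.29 (adjusted p = 0.332). Rsad2, the gene for viperin, had 0.50 ± 0.43, with an unpaired interval of -0.42 to 1.42. It was higher in all 3 pairs, and with pairs the SE was 0.19 and the adjusted p 0.0988, so it passed in neither fit. The remaining members (Ifit1, Oas2, Oasl2, Mx2, Bst2 and the GTPase genes Gbp2, Gbp3, Igtp, Iigp1 and Irgm1) ran between -0.15 and 0.58, and none passed in either fit.

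**Figure D2:**
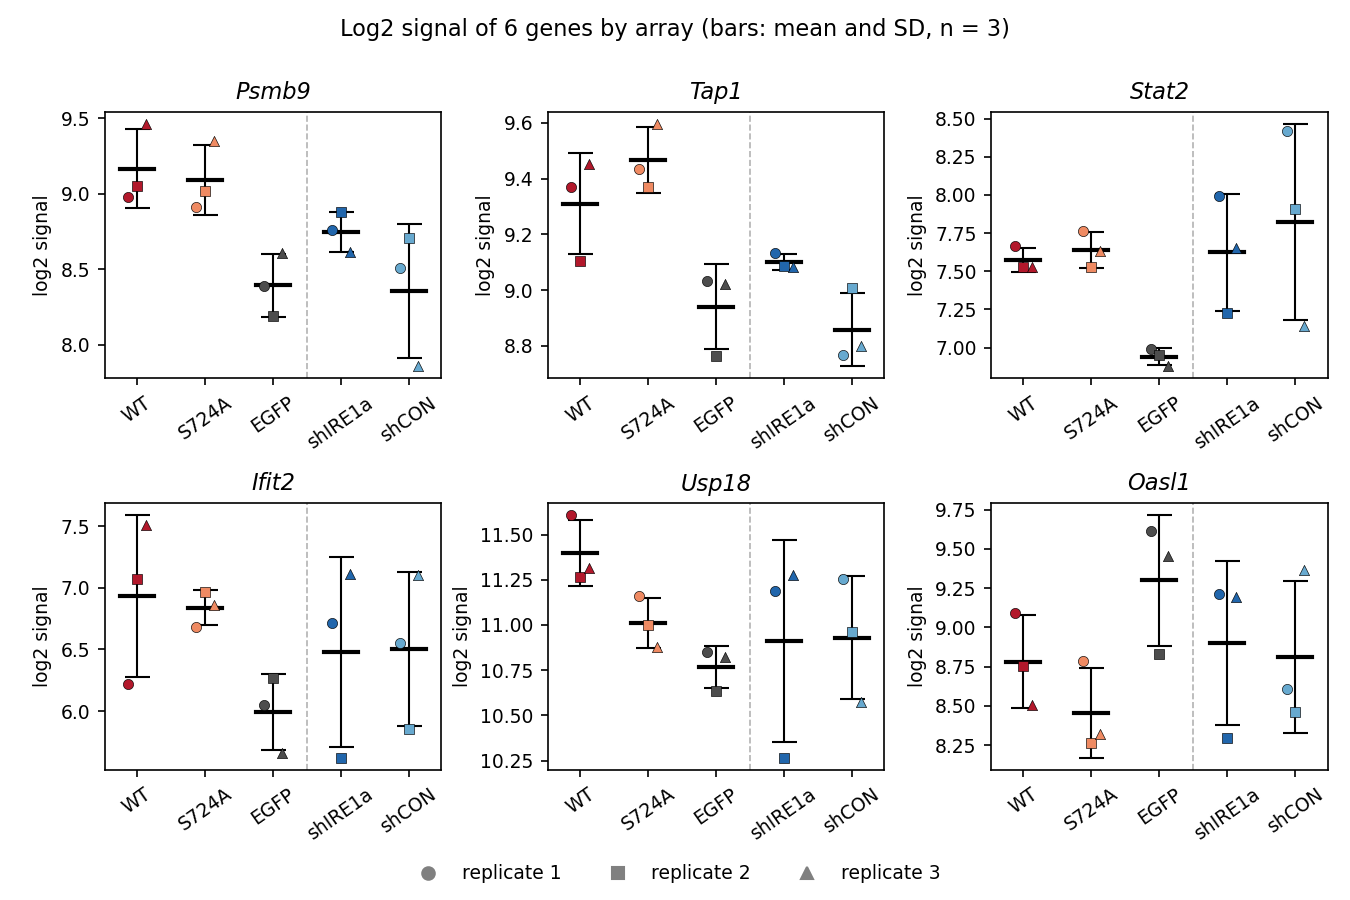
Log2 signal (vertical axes) of Psmb9, Tap1, Stat2, Ifit2, Usp18 and Oasl1 on each array, with groups along the horizontal axis, 1 symbol per replicate number, and the mean and SD of 3 arrays as bars. Psmb9 and Stat2 sit higher on all wild-type and S724A IRE1a arrays than on all EGFP arrays; the dashed line divides the 48 h cultures from the 72 h glucagon cultures.

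S724A IRE1a was set against the same 3 EGFP arrays, so its values are not independent of those above. Tap1 was called higher, and no other member passed (0 lower), where 3.87% of all genes were called higher and 2.25% lower. The median change was 0.13, against -0.0131 over all genes, and 20 of 29 changes were positive, against 48.2% of all genes. Groups did not overlap for 8 members upward and 3 downward, with 16.5% and 16.8% of all genes so separated. With pairs, Stat2, Ifit2, Psmb9, Psmb10 and Tap1 were called higher (5 of 29) and Oasl1 lower (1 of 29), where 8.89% of all genes were called higher and 5.52% lower. Without replicate number 2 the paired fit called 1 member, Oasl1, and it called 5 without number 1 and 5 without number 3. Oasl1 was among them each time. The share of all genes called in these smaller fits is not given here, so these counts are not a result about the members.

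Tap1 read 9.44, 9.37 and 9.60 with S724A IRE1a, against 9.03, 8.76 and 9.02 with EGFP. The lowest S724A array was above the highest EGFP array, with a change of 0.53 ± 0.12, or 1.44-fold (adjusted p = 0.0144). Omitting EGFP replicate 2 or S724A replicate 3 ended the call. It was also lost when the gene's probe sets were averaged, with the adjusted p reaching 0.243: the other tested Tap1 probe sets, with lower signals, changed by 0.16 ± 0.13 and -0.15 ± 0.20. Psmb9 read 8.91, 9.02 and 9.35 with S724A IRE1a and was 0.70 ± 0.20 above EGFP, with groups apart (adjusted p = 0.0557, and 0.003 with pairs). Psmb10 read 9.12, 9.27 and 9.65, against 8.95, 8.67 and 9.12 with EGFP, a change of 0.44 ± 0.18 (adjusted p = 0.161, and 0.0219 with pairs). Its S724A replicate 1 and EGFP replicate 3 nearly touched. Psmb8 and Tap2 showed 0.35 ± 0.26 and 0.36 ± 0.19, and B2m -0.31 ± 0.11 with all S724A arrays below all EGFP arrays (adjusted p = 0.118).

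Stat2 read 7.76, 7.53 and 7.63 with S724A IRE1a, 0.70 ± 0.24 above EGFP (adjusted p = 0.103, and 0.0208 with pairs). Its second tested probe set gave 0.40 ± 0.21 with S724A IRE1a and 0.39 ± 0.21 with wild-type IRE1a. Ifit2 read 6.68, 6.97 and 6.86 with S724A IRE1a, and all 3 arrays were above the EGFP range (change 0.84 ± 0.38, adjusted p = 0.196, and 0.0302 with pairs). Oasl1 read 8.78, 8.26 and 8.32 with S724A IRE1a, against 9.61, 8.83 and 9.46 with EGFP. The groups were separated and the change was -0.84 ± 0.29 (adjusted p = 0.0993, and 0.00782 with pairs). Oas2, an oligoadenylate synthetase, also lay below EGFP on every S724A array, by -0.31 ± 0.11 (adjusted p = 0.119, and 0.0704 with pairs). Dhx58, Irf7, Usp18 and Oas1a, called with pairs for wild-type IRE1a, had changes of 0.23 ± 0.26, 0.10 ± 0.26, 0.24 ± 0.23 and 0.26 ± 0.26 with S724A IRE1a.

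**Figure D3:**
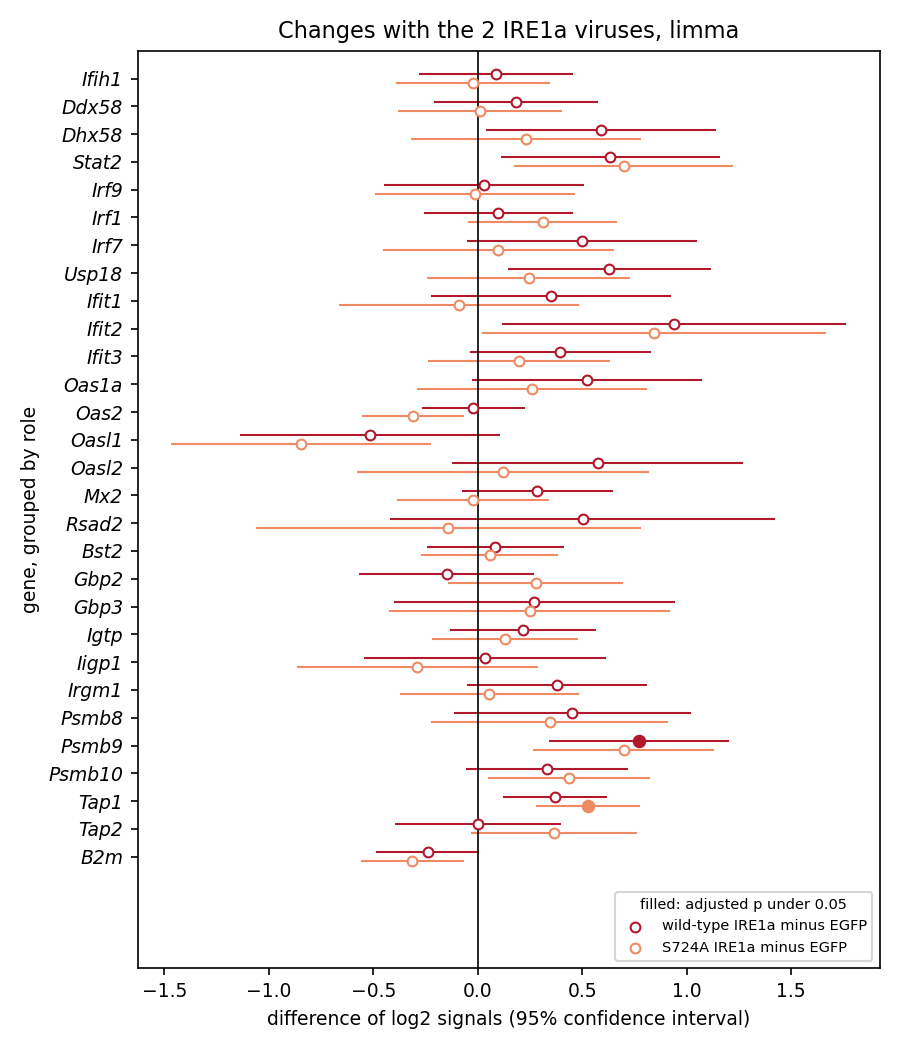
Change of each tested gene (vertical axis, by role) with wild-type IRE1a and with S724A IRE1a relative to EGFP, as the difference of log2 signals with its 95% confidence interval (horizontal axis). Filled points passed limma's adjusted p of 0.05: Psmb9 at 0.77 for wild-type IRE1a and Tap1 at 0.53 for S724A IRE1a; both comparisons use the same EGFP arrays.

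Wild-type and S724A IRE1a were then compared directly, which bears on whether the serine replaced in S724A matters for these genes. No member passed in either direction (smallest adjusted p = 0.803), and neither did any gene in the table (0% higher and 0% lower). At an unadjusted p under 0.05 there were 2 members and 997 of all genes. With pairs 0 members passed, and 2 genes in all did (0.0123%). The median member difference was 0.11, against 0.0254 over all genes, and 23 of 29 were positive, against 56.9% of all genes. Groups did not overlap for 6 members upward (Ddx58, Dhx58, Usp18, Ifit1, Oas2 and Irgm1) and 2 downward (Gbp2 and Tap2), where 8.56% of all genes were separated upward and 4.69% downward.

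The members with an unadjusted p under 0.05 were Oas2 and Gbp2. Oas2 read 7.06, 7.06 and 7.09 with wild-type IRE1a, against 6.80, 6.65 and 6.90 with S724A IRE1a, a difference of 0.29 ± 0.11. The wild-type arrays lay above and hardly varied. Gbp2, a guanylate-binding protein gene, read 5.61, 5.55 and 5.91 with wild-type IRE1a, against 5.93, 5.92 and 6.49 with S724A IRE1a, a difference of -0.43 ± 0.20 with an adjusted p of 0.81. For Psmb9 the difference was 0.07 ± 0.20, with a 95% confidence interval of -0.36 to 0.51. For Tap1 it was -0.16 ± 0.12, with an interval of -0.41 to 0.09. The median half-width of these intervals over the members was 0.43, so smaller differences than that could not be resolved for a typical member.

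In the hairpin cultures the arrays of a group differed more for these genes than the groups did. The second IRE1a hairpin array was the lowest of its group for 25 of 29 members, where it was lowest for 36.3% of all genes. The third control hairpin array was lowest for 21 of 29, against 33.4% of all genes. The median member lay 0.40 below its group mean on that IRE1a hairpin array and 0.26 below on that control array, while the medians over all genes were 0.00976 and 0.00896. In the 48 h cultures EGFP replicate 2 was lowest for 20 of 29 members, against 41.8% of all genes, with a median deviation of -0.18. Ifit1, which binds RNA with an unmodified cap, gives an example: it read 7.26, 5.92 and 7.04 with the IRE1a hairpin, against 7.11, 6.89 and 6.78 with the control hairpin. The second IRE1a hairpin array stood more than a log2 unit below its partners. Not every member followed the pattern: control hairpin replicate 3 was the highest of its group for 5 of 29 members, against 37.1% of all genes. Rsad2 was among them, at 10.58, 10.23 and 12.14 with the control hairpin. With the IRE1a hairpin it read 11.42, 10.41 and 11.66, with replicate 2 again the lowest.

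Marker signals differed on these arrays as well. The mean hepatocyte marker signal was lowest of its group on IRE1a hairpin replicate 2 (11.6), control hairpin replicate 3 (11.5) and EGFP replicate 2 (11.5). The single hepatocyte markers did not move together. On EGFP replicate 2 Alb (14.56) and Ttr (13.92) were the highest of their group, while Tat (10.25) and Apob (9.09) were the lowest. On control hairpin replicate 3 Alb (14.20) was the lowest, and Fgb read 10.23, against 12.62 and 11.86 on the other control hairpin arrays. The mean immune marker signal was highest of its group on IRE1a hairpin replicate 2 (5.33) and EGFP replicate 2 (5.31), and 5.05 on control hairpin replicate 3. Their part in the members' values was not tested.

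**Figure D4:**
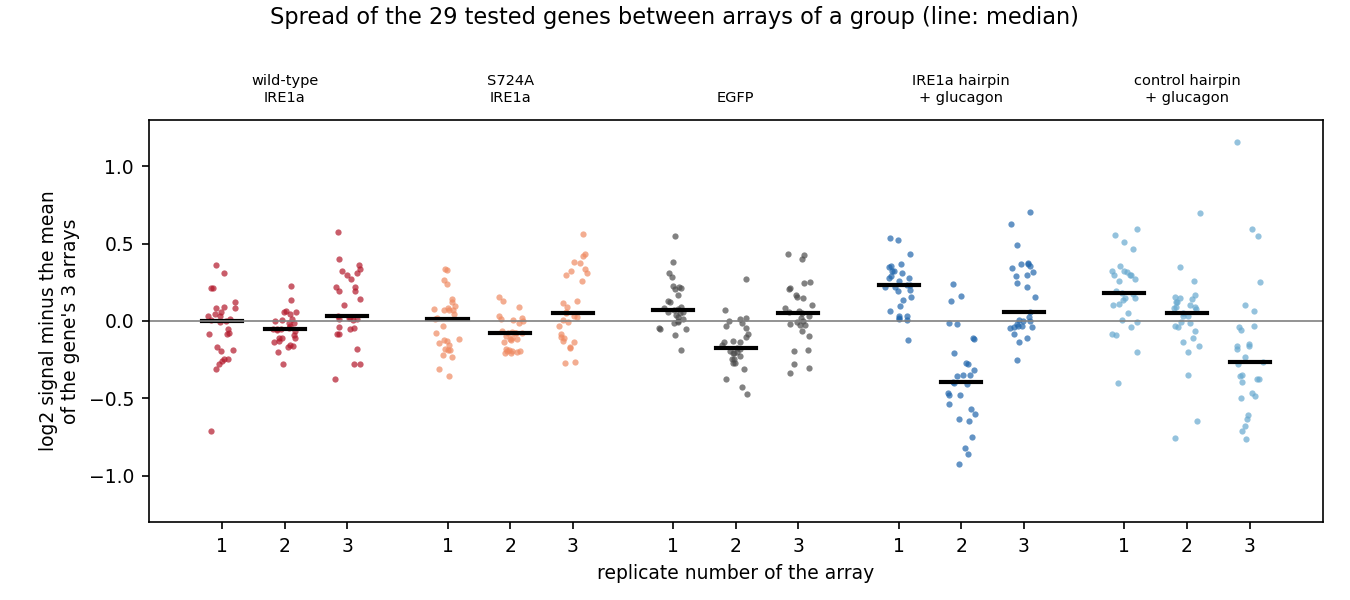
Deviation of each of the 29 tested genes from the mean of its group's 3 arrays (vertical axis, log2 signal), for each array by group and replicate number (horizontal axis), with the median as a line. The medians are -0.40 on IRE1a hairpin replicate 2, -0.26 on control hairpin replicate 3 and -0.18 on EGFP replicate 2.

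The knockdown comparison, IRE1a hairpin minus control hairpin with glucagon in both, called 0 of 29 members in either direction (limma, smallest adjusted p = 0.61), with 1 member at an unadjusted p under 0.05. Over all genes 0.0491% were called higher and 0.184% lower, and 7.73% had an unadjusted p under 0.05. With pairs 0 members were called, against 1.23% of all genes in either direction. The median member change was 0.0448, against 0.0206 over all genes, and its sign depended on single arrays: it was -0.0956 without control hairpin replicate 3 and 0.234 without IRE1a hairpin replicate 2. Tap1 was the 1 member whose groups did not overlap (1 upward, 0 downward), where 6.05% of all genes were separated upward and 5.49% downward.

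Tap1 read 9.13, 9.09 and 9.08 with the IRE1a hairpin, against 8.77, 9.01 and 8.80 with the control hairpin, a change of 0.24 ± 0.12 (adjusted p = 0.65). The lowest knockdown array was above the highest control array by less than 0.1. Psmb9 read 8.76, 8.88 and 8.61, against 8.51, 8.71 and 7.86 with the control hairpin, a change of 0.39 ± 0.20 (adjusted p = 0.665). It was higher in all 3 pairs, with the third control array far below the rest. Oas2 had the smallest unadjusted p, at 6.92, 7.14 and 6.65 with the IRE1a hairpin, against 6.63, 6.67 and 6.60 with the control hairpin, a change of 0.27 ± 0.11. Stat2, at 7.99, 7.23 and 7.65 with the IRE1a hairpin, against 8.42, 7.91 and 7.14 with the control hairpin, changed by -0.20 ± 0.24. The IRE1a hairpin arrays lay within the range of the control hairpin arrays. The other 25 members had changes of -0.32 to 0.45, the ends being Gbp2 and Irf7, and none passed.

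The control hairpin with glucagon was also set against EGFP. The virus, the 24 h longer culture and glucagon differ together in this comparison and cannot be told apart. Tap2, Gbp2 and Stat2 were called higher and Oas2 lower (3 and 1 of 29), where 9.34% of all genes were called higher and 6.74% lower. The median change was 0.00291, against -0.0547 over all genes, with 15 of 29 positive, against 42.8% of all genes. Groups did not overlap for 3 members upward and 2 downward, where 16.6% and 19.6% of all genes were so separated. Tap2 read 8.06, 7.84 and 7.39 with the control hairpin and glucagon, against 7.34, 6.77 and 6.78 with EGFP, a change of 0.80 ± 0.19 (adjusted p = 0.0103). The third control hairpin array was only just above the first EGFP array.

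Gbp2 read 6.82, 6.61 and 6.44 with the control hairpin and glucagon, against 5.85, 5.80 and 5.85 with EGFP. The groups were clearly apart, with a change of 0.79 ± 0.20 (adjusted p = 0.0152). Its probe set carries the suffix _x_at, which marks probes that may also match other transcripts, and the second Gbp2 probe set gave 0.56 ± 0.21. Stat2 read 8.42, 7.91 and 7.14, against 6.99, 6.95 and 6.88 with EGFP, a change of 0.88 ± 0.24 (adjusted p = 0.0255), and its second probe set gave 0.84 ± 0.21. Oas2 read 6.63, 6.67 and 6.60, against 7.05, 7.16 and 7.07 with EGFP, a change of -0.46 ± 0.11 (adjusted p = 0.0155) with no overlap. All 4 calls were lost without EGFP replicate 2 and without control hairpin replicate 1, with the highest adjusted p of a gene at 0.056 for Tap2, 0.0603 for Oas2, 0.0696 for Gbp2 and 0.111 for Stat2. The Tap2 and Stat2 calls were also lost without EGFP replicate 3, and that of Stat2 without control hairpin replicate 2 and on the 6 arrays alone. Without control hairpin replicate 3, Ddx58, Oas1a and Psmb8 were called in addition, 7 members in all. The share of all genes called in that fit is not given here, so the rise is not a result about the members.

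**Figure D5:**
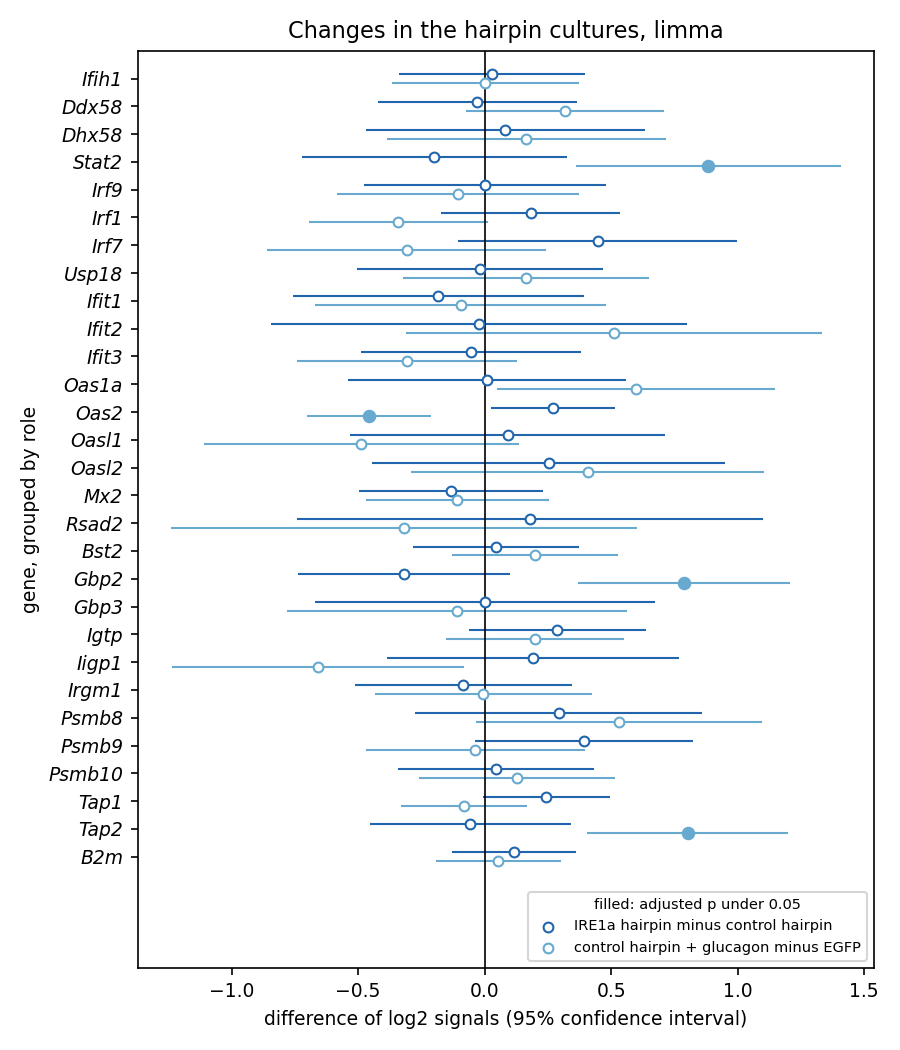
Change of each tested gene (vertical axis, by role) with the IRE1a hairpin relative to the control hairpin, and with the control hairpin and glucagon relative to EGFP, as the difference of log2 signals with its 95% confidence interval (horizontal axis). Filled points passed limma's adjusted p of 0.05: Stat2, Oas2, Gbp2 and Tap2 in the second comparison, and no gene in the knockdown.

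The wider pathway was read from 147 further genes in 9 lists, and 122 of these genes were tested. The lists covered interferon ligands, receptors and kinases, sensors, other stimulated genes and other GTPases. They also covered other antigen processing and MHC class I, MHC class II, the constitutive proteasome and IRF factors. With wild-type IRE1a 8 of 122 rose and 2 fell, where 5.08% of all genes were called higher and 2.59% lower. With S724A IRE1a 10 of 122 rose and 2 fell, against 3.87% and 2.25% of all genes, and the direct comparison of the IRE1a forms called 0. With pairs 18 rose and 6 fell with wild-type IRE1a, against 10.6% and 4.99% of all genes, and 16 rose and 6 fell with S724A IRE1a, against 8.89% and 5.52%. The median change was 0.0811 with wild-type IRE1a and 0.0627 with S724A IRE1a, against 0.00311 and -0.0131 over all genes. The knockdown called 1 gene lower, where 0.184% of all genes were. The control hairpin with glucagon relative to EGFP called 7 of 122 higher and 7 lower, against 9.34% and 6.74% of all genes. Without pairs, the shares called were near those of all genes for wild-type IRE1a and below them for the control hairpin with glucagon, and neither is a result about the pathway.

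The list of other antigen processing and MHC class I genes had the most calls in both comparisons with EGFP. It also holds proteasome activators, transcription factors and the chaperone genes Calr, Canx and Pdia3, which are not particular to MHC class I. With wild-type IRE1a 3 of 16 genes rose and 2 fell, where 5.08% of all genes were called higher and 2.59% lower. With S724A IRE1a 5 of 16 rose and 1 fell, against 3.87% and 2.25% of all genes. Calr, the gene for the chaperone calreticulin that stabilises MHC class I during loading, read 12.12, 12.11 and 12.10 with wild-type IRE1a and 12.25, 12.52 and 12.66 with S724A IRE1a, against 11.18, 11.02 and 11.21 with EGFP. It rose by 0.98 ± 0.13 and 1.34 ± 0.13 (adjusted p = 0.000271 and 1.54e-05), far beyond the spread of the arrays. H2-M3, a class I molecule that presents formylated peptides, rose by 0.68 ± 0.13 and 0.81 ± 0.13, and Tapbpl, a tapasin-like peptide editor, by 0.72 ± 0.17 and 0.89 ± 0.17. Tapbp, the gene for tapasin, which bridges TAP and MHC class I, read 8.96, 8.87 and 8.81 with wild-type IRE1a and 9.07, 8.88 and 9.24 with S724A IRE1a, against 10.06, 9.61 and 9.64 with EGFP. It fell by 0.89 on the log2 scale with wild-type IRE1a and by 0.71 with S724A IRE1a (adjusted p = 0.00433 and 0.0232).

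Erap1, the aminopeptidase that trims peptides for MHC class I, read 8.07, 7.87 and 8.13 with wild-type IRE1a and 8.50, 8.54 and 8.69 with S724A IRE1a, against 8.86, 8.73 and 8.96 with EGFP. It fell by 0.83 with wild-type IRE1a (adjusted p = 0.00201), its change with S724A IRE1a of -0.27 did not pass, and the direct difference of -0.56 ± 0.14 had an adjusted p of 0.705. Canx and Pdia3, chaperones of the loading complex, rose with S724A IRE1a by 0.47 ± 0.11 and 0.60 ± 0.15. The calls of Calr and H2-M3 in both comparisons, of Tapbp and Erap1 with wild-type IRE1a and of Tapbpl with S724A IRE1a held under every alternative and with each array left out. Omitting EGFP replicate 2 or wild-type replicate 3 ended the wild-type call of Tapbpl. Omitting EGFP 1 or S724A 1 or 2 ended the S724A call of Tapbp, and omitting EGFP 2 or S724A 2 or 3 ended that of Canx. The call of Pdia3 ended in 5 of 6 omissions, all but that of EGFP 1.

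Of 43 other interferon-stimulated genes, 3 rose with wild-type IRE1a and 1 with S724A IRE1a, counts near the 5.08% and 3.87% of all genes called higher. Isg20, an exonuclease gene, read 9.79, 10.12 and 9.26 with wild-type IRE1a and 9.54, 10.24 and 9.71 with S724A IRE1a, against 8.67, 8.22 and 8.32 with EGFP. It rose by 1.32 ± 0.27 and 1.43 ± 0.27 (adjusted p = 0.00775 and 0.00564), and both calls held with each array left out. Ifi35 and Lgals9 rose with wild-type IRE1a by 0.39 ± 0.10 and 0.70 ± 0.19 (adjusted p = 0.036 and 0.0392), but both calls were lost in 5 of 6 omissions of single arrays, all but EGFP replicate 1 for Ifi35 and all but EGFP replicate 3 for Lgals9. Among 17 sensor and adaptor genes, Ticam1, the adaptor of Toll-like receptor 3, rose by 0.72 ± 0.16 with wild-type IRE1a and 0.79 ± 0.16 with S724A IRE1a. The first call was lost without EGFP replicate 2 or wild-type replicate 3, the second without EGFP replicate 2. Ikbke, a kinase of IRF3, rose with S724A IRE1a by 1.96 ± 0.37 (adjusted p = 0.00524), at 9.08, 9.58 and 11.10, against 8.16, 7.75 and 7.98 with EGFP. Its wild-type IRE1a arrays read 8.90, 9.18 and 9.55 (adjusted p = 0.0556, and 0.0169 with pairs). Myd88, the adaptor of most Toll-like receptors, and Ifnar1, a subunit of the type I interferon receptor, rose with S724A IRE1a by 0.53 ± 0.15 and 0.61 ± 0.14 (adjusted p = 0.0493 and 0.0208). The first call was lost in 5 of 6 omissions of single arrays, all but EGFP replicate 1, and the second in 4 of 6, all but EGFP replicate 1 and S724A replicate 1.

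None of the 3 tested interferon ligand genes was called higher in any comparison. Ifna2, an interferon alpha gene, was called lower with S724A IRE1a (-0.56 ± 0.15, adjusted p = 0.046), a call that ended with any of the 6 arrays left out. It was also called lower with the control hairpin and glucagon relative to EGFP (-0.58 ± 0.15, adjusted p = 0.0218), unless EGFP replicate 2 or control hairpin replicate 3 was left out. Ifnb1, the gene for interferon beta, was at 5.60, 5.10 and 5.36 with wild-type IRE1a and 5.36, 5.48 and 5.31 with S724A IRE1a, against 5.59, 5.63 and 5.48 with EGFP. The wild-type arrays overlap the EGFP arrays, and the highest S724A array lies level with the lowest EGFP array, at a signal not far above the filter. Of 14 constitutive proteasome genes, 1 passed with wild-type IRE1a (Psma5, 0.34 ± 0.09, lost with any of the 6 arrays left out) and 0 with S724A IRE1a. Over all genes 5.08% and 3.87% were called higher in these comparisons, and 2.59% and 2.25% lower. Of 36 tested immune markers, 0 were called in either comparison with EGFP. At an unadjusted p under 0.05 there were 2 with wild-type IRE1a and 7 with S724A IRE1a, against 21.39% and 24.01% of all genes. With pairs 2 markers rose and 0 fell with wild-type IRE1a, against 10.6% and 4.99% of all genes. With S724A IRE1a 0 markers rose and 2 fell with pairs, against 8.89% and 5.52%.

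In the knockdown, Ifngr2, a subunit of the interferon gamma receptor, read 8.50, 8.50 and 8.65 with the IRE1a hairpin, against 9.64, 9.31 and 9.33 with the control hairpin. It fell by 0.87 on the log2 scale (adjusted p = 0.00384) with no overlap, though on these 6 arrays alone the adjusted p was 0.12. In the control hairpin cultures with glucagon, Socs3, the feedback inhibitor of cytokine signalling, read 9.83, 10.06 and 10.67, against 7.90, 7.71 and 8.03 with EGFP, and rose by 2.31 ± 0.21 (adjusted p = 1.3e-05). Trim25, the ubiquitin ligase that activates RIG-I, and Helz2 rose by 0.75 ± 0.13 and 1.05 ± 0.23, and Irf8 fell by 1.12 on the log2 scale. Tapbp rose by 0.73 ± 0.17 there (adjusted p = 0.0104), and omitting EGFP replicate 2 or 3, or control hairpin replicate 1, ended that call. The calls of Socs3, Trim25, Helz2 and Irf8 held with each array left out. Among sensors, Cgas, the cytosolic DNA sensor, and Sting1, its adaptor, fell by 0.47 and 0.34 on the log2 scale (adjusted p = 0.0196 and 0.044). The median of the 17 sensor and adaptor genes was -0.0941. Ifngr2, Irf2 and the MHC class II gene H2-Ab1 rose by 0.38 ± 0.12, 0.73 ± 0.19 and 0.63 ± 0.20. Irf4, the MHC class II gene H2-Aa and Rfx5, a factor of MHC promoters, fell by 0.35, 0.45 and 0.54. The calls of these 8 genes were each lost in 2 to 5 of 6 omissions of single arrays.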

How the data were processed

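The assay was an Affymetrix mouse whole-genome expression array, with 15 arrays, 3 for each of 5 groups as the labels give them. The deposited values are log2 signals, which the authors made with GCRMA per the submitters' processing notes; no version is given in the sources used here, and the scale was read from the values. GCRMA shrinks dim probe sets towards background, so changes of low genes are compressed, and its steps across arrays can hide a shift of all genes.

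Of 45101 probe sets, 34945 had 1 gene symbol in the platform annotation. The probe set with the highest mean over 15 arrays stood for each of 18193 genes, and 16294 genes with a value of 4 or more on at least 3 arrays were tested in R 4.3.3 with limma 3.58.1 (lmFit and eBayes, 5 groups in 1 fit, 10 residual degrees of freedom, Benjamini-Hochberg over all genes tested, threshold 0.05). All tests are two-sided, a change is the difference of group means of log2 signals, and p-values reflect the spread between 3 arrays per group. The fit was tested on simulated data. The number of arrays limits the precision.

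Arrays of the same number within the 48 h cultures, or within the hairpin cultures, deviated together: all 12 such residual correlations over all genes exceeded 0.1 (0.20 to 0.69). The numbers come from the labels. A paired fit with the number as a block within each kind of culture has 6 residual degrees of freedom, and is given where it changes a call or a count. It could not be fitted for the control hairpin against EGFP.

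The members and all gene lists were chosen with earlier results of these data known. Named genes are the members, Ern1 and, of each pathway list, up to 4 called genes per comparison with the smallest p (the smallest-p gene of a list with no call, which the rule also gave, is not printed); Canx and Pdia3 were the fifth and sixth of theirs, Ifnb1 is outside this rule, and all 3 were chosen after their values were seen. Alternatives were quantile normalisation, median centring, no filter and a filter of 6, the mean of a gene's probe sets, a fit of just the 6 arrays compared, trended and robust variances, the block, and each array left out.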

Additional observations from a re-analysis of the deposited data

Results flagged for a closer look

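A probe set that the annotation ties to both Isg15 and Gm9706 belongs to no tested gene, yet it read above the EGFP level in both IRE1a groups. Its log2 signals were 9.11, 9.28 and 9.58 with wild-type IRE1a and 8.75, 8.84 and 9.14 with S724A IRE1a, against 8.56, 8.28 and 8.60 with EGFP. The mean difference was 0.84 for wild-type IRE1a and 0.429 for S724A IRE1a, with no overlap of the groups in either case; neither was tested. With the IRE1a hairpin it read 9.40, 7.97 and 8.99, against 9.66, 8.82 and 8.35 with the control hairpin. The lowest values are those of IRE1a hairpin replicate 2 and control hairpin replicate 3, as for most tested members. Which of the 2 genes the signal comes from cannot be told apart.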

How the results depend on the processing

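Over 8 alternatives and 15 omissions of single arrays, 1953 of 1996 member values kept their status as called or not called. Of the rest, 19 calls were lost and 24 were gained. No called change turned sign, while 118 uncalled ones did. Most of these values had no call to lose. The main fit called 1 member with wild-type IRE1a, 1 with S724A IRE1a and 0 in their difference and in the knockdown. For the control hairpin with glucagon it called 3 higher and 1 lower. The replicate block raised the members called to 9 with wild-type IRE1a and 6 with S724A IRE1a, each 1 without it. It raised the genes called to 2539, 2347, 2 and 200 for wild-type IRE1a, S724A IRE1a, their difference and the knockdown, against 1250, 997, 0 and 38. The block lost no member call, and changed none besides those gains; it could not be fitted for the control hairpin with glucagon against EGFP. Fits of 6 arrays alone called 4 members for each IRE1a virus, and 5 genes in the knockdown. For S724A IRE1a a filter of 6 called 2 members, and the mean of probe sets 0. The shares of all genes called beside these member counts are not given here, so the counts are not results about the members. Trended and robust variances called 2 genes between the IRE1a forms.

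With single arrays left out, members called ranged over 0 to 1 for wild-type IRE1a, 0 to 1 for S724A IRE1a and 0 to 7 for the control hairpin with glucagon. Genes called ranged over 715 to 1108, 485 to 979, 13 to 75 in the knockdown, and 1330 to 2756 for the control hairpin with glucagon. With the block and 1 replicate number left out, an alternative added after seeing the data, members called ranged over 1 to 3 for wild-type IRE1a and 1 to 5 for S724A IRE1a. The share of all genes called in these paired fits is not given here. Of called genes 66.2% and 63.3% rose with wild-type and S724A IRE1a, and after quantile normalisation 53.1% and 52.9%. The causes of these shifts were not tested. The median confidence interval half-width of 0.43 limits what 3 arrays per group can resolve, and GCRMA compresses the dim members further.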
